A study of Mus musculus with 5 samples.

Results

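Nuclear-encoded respiratory chain genes are described here as the protein-coding genes whose symbols name a subunit of NADH dehydrogenase (Nduf followed by a, b, c, s or v and a number), succinate dehydrogenase (Sdha to Sdhd), the cytochrome bc1 complex (Uqcr), cytochrome c oxidase (Cox4 to Cox8) or ATP synthase (Atp5). The rule used names alone and no measured value. It found 84 of the 49671 genes in the count table, of which 22050 were protein-coding. Complex I contributed 35 members, complex II 4, complex III 8, complex IV 20 and complex V 17. Ndufa4 and Ndufa4l2 were placed with complex IV, since the Ndufa4 protein is a subunit of that complex. Atp5s and Atp5sl match the rule by name but are not subunits of the ATP synthase, and Cox7a2l acts in supercomplex assembly.

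RNA was sequenced from 5 single mouse embryos of mixed strain background, taken at the onset of gastrulation. The 2 SO+ embryos (WT; Sox2Cre-/-; Oct4 fl/+) lacked the Cre transgene and had a floxed beside an intact Oct4 allele, and the 3 SO- embryos (Sox2Cre+/-; Oct4 fl/-) carried Cre with a floxed beside a null allele, so that the floxed allele was shared by all 5. Sox2Cre recombines mainly in the epiblast, and the loss of Oct4 protein was still mosaic shortly before this stage. The extraembryonic ectoderm had been cut away for genotyping, and each sample was the epiblast with its visceral endoderm (VE). Pou5f1, which encodes Oct4, stood at 920 and 435 CPM (counts scaled to a library total of 1e+06) in SO+ embryos 1 and 2 and at 27.8, 12.5 and 43.7 CPM in SO- embryos 1, 2 and 3.

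The respiratory chain passes electrons from NADH (complex I) and succinate (complex II) through complex III to oxygen at complex IV. Complexes I, III and IV pump protons, and complex V makes ATP from the resulting gradient. Most subunits are encoded in the nucleus and a core set on mitochondrial DNA, so the complexes are built from the products of both genomes. Several complex IV subunits exist as a general form and a form typical of muscle, lung or testis. Around gastrulation the epiblast is known for high glycolysis beside respiration, and the VE for active uptake and transport.

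Depth differed strongly between the genotypes. Total counts were 27538119 and 27047148 in the SO+ embryos and between 1117566 and 4191498 in the SO- embryos, so that 3 counts stood for 0.109 to 0.111 CPM in SO+ and up to 2.68 CPM in SO- embryo 2. Depth and the second sequencing index both cannot be told apart from genotype, as each index was used for 1 genotype. Summed CPM of 9 epiblast markers was 4921 to 6129 in SO+ and 2555 to 3510 in SO-, while that of 14 VE markers was 3275 to 3745 in SO+ and 3270 to 5127 in SO-. Of the epiblast markers 4 were called, the targeted Pou5f1, Utf1 and Dnmt3b lower and Fgf8 higher in SO-, and 5 of the 9 had a log2 fold change above 0 (median 0.018), so the lower sum is not shared by all of them. Among the VE markers Cer1 alone was called, as higher. However, 13 of the 14 had a log2 fold change above 0, with a median of 0.41. In edgeR 8 of them had an unadjusted p under 0.05, against 13.7% of all genes tested. Summed CPM of 8 extraembryonic ectoderm markers was 20.2 to 24.0 in SO+ and 31.7 to 59.95 in SO-, where Hand1, the one call (1.09 and 2.74 CPM against 13.5, 24.2 and 11.9), and Bmp4 (4.43 and 3.85 CPM against 10.6, 16.1 and 5.25) made up most of the difference and 2 of the 6 tested markers were below 0. The sum for 7 markers of maternal blood and decidua was at most 4.88 CPM, with 5 of them at 0 in every embryo. Their part in the results was not tested. Over all 12067 genes tested with edgeR's quasi-likelihood test, 283 differed between genotypes at an adjusted p under 0.05, which is 2.35% of them.

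Windows around the transcription starts of the members are shown for 4 genes, chosen for their part in the results below: Uqcr11, the complex III subunit with the lowest level in SO- relative to SO+, Ndufb8, among the complex I members with most counts per length, and the general and testis forms Cox6b1 and Cox6b2. Each window of 300 bases runs from 250 bases before the start to 50 after it (RefSeq, GRCm38.p6) and is written 5′ to 3′ in the direction of the gene. Capitals mark matches on either strand to the core motifs of NRF1 (GCGCANGCG), ETS factors such as GABPA (CCGGAAG) and YY1 (AAGATGGC), all regulators known for nuclear respiratory genes.
Uqcr11, chr10:80406772-80407071, minus strand: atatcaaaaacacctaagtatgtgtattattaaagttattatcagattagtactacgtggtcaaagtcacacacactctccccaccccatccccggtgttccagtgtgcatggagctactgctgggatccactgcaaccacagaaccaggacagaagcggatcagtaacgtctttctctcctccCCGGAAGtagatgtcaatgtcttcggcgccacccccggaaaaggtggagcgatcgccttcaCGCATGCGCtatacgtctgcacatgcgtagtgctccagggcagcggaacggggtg
Ndufb8, chr19:44555393-44555692, minus strand: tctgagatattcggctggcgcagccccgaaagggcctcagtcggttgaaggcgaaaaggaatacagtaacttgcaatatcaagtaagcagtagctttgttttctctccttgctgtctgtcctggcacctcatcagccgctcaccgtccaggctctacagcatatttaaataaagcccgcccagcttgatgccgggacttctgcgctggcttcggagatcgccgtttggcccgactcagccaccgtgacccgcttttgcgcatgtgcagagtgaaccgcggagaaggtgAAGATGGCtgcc
Cox6b1, chr7:30626065-30626364, minus strand: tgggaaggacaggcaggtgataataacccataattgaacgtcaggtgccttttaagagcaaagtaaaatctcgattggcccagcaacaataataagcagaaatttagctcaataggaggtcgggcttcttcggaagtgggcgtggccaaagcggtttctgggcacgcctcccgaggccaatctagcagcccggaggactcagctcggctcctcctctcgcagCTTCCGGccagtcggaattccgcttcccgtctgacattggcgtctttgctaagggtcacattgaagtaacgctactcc
Cox6b2, chr7:4753045-4753344, minus strand: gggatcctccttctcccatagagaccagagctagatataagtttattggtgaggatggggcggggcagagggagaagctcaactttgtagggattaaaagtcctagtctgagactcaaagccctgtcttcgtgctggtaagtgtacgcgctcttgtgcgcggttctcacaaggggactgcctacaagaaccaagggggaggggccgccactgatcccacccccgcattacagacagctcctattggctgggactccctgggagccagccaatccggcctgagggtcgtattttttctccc
The Uqcr11 window held an ETS and an NRF1 match, Ndufb8 a YY1 match and Cox6b1 an ETS match, and no match was found in that of Cox6b2. The number of CG dinucleotides was 16, 19, 17 and 10 in the same order. A RefSeq window was found for 66 of the 84 members. Of these, 28.8% held the NRF1 motif, 22.7% the ETS motif and 12.1% the YY1 motif. Over all 27025 genes with a RefSeq window the shares were 6.47%, 9.12% and 2.88%. Those genes were not matched to the members for gene type, expression or CG content. At least 1 of the 3 motifs was present in 35 member windows (53.0%), against 16.5% of all windows, and the median number of CG dinucleotides was 19 in members and 7 in all genes. Matches overlapping one another were each counted. By complex, a motif was found in 18 of 31 windows for complex I, 3 of 3 for complex II, 3 of 5 for complex III, 3 of 14 for complex IV and 8 of 13 for complex V.

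The nuclear-encoded respiratory chain was expressed in every embryo at nearly the same level in both genotypes. Together the members took 18087 and 17254 CPM in SO+ embryos 1 and 2, and 16650, 16278 and 17335 CPM in SO- embryos 1, 2 and 3. The SO- mean was 0.948 times that of SO+ and the groups overlapped, as SO- embryo 3 was above SO+ embryo 2. In bulk embryos, fewer cells of a type and less RNA per cell cannot be told apart. At least 1 count was present in every embryo for 80 members and at least 10 counts for 75.

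Summed by complex, the SO- to SO+ ratio of mean CPM lay between 0.933 and 0.969. Complex I summed to 4241 and 3951 CPM in the SO+ embryos and to 4004, 3767 and 4129 CPM in SO- embryos 1, 2 and 3, and complex IV to 3268 and 3002 CPM against 3075, 2812 and 3218 CPM. In both of these complexes SO- embryos 1 and 3 were above SO+ embryo 2, and SO- embryo 2 was the lowest. Complex II summed to 830 and 781 CPM in SO+ and to 753, 737 and 763 CPM in SO-. Complex III reached 1922 and 1899 CPM against 1776, 1757 and 1825 CPM, and complex V 7827 and 7622 CPM against 7042, 7205 and 7401 CPM. For complexes II, III and V every SO- embryo was below both SO+ embryos, by a ratio of means of 0.933, 0.935 and 0.934. An exact permutation test of 2 embryos against 3 cannot give a two-sided p below 0.1, so these sums were not tested. Relative to nuclear protein-coding counts alone the same ratios were 0.944, 0.946 and 0.946, still without overlap.

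**Figure D1:**
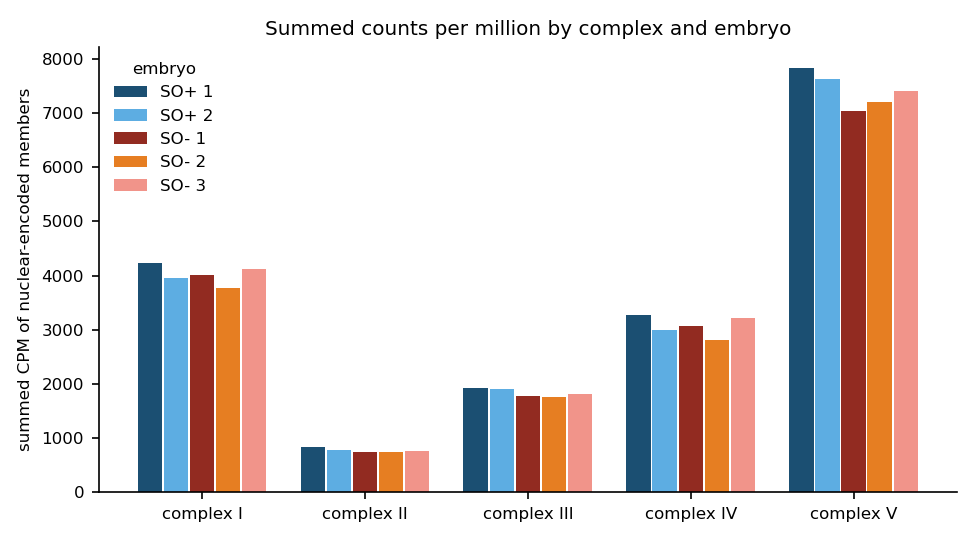
Summed CPM of the nuclear-encoded members of each complex (x axis) in each of the 5 embryos (bars, y axis from 0). Complex V was highest, at 7042 to 7827 CPM, and complex II lowest, at 737 to 830 CPM.

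No member differed between genotypes at an adjusted p under 0.05 with edgeR, of 80 tested (2.35% of all genes did). At an unadjusted p under 0.05 there were 3 members, Atp5sl, Ndufs5 and Uqcr11, which is 3.75% against 13.7% of all genes tested. DESeq2 and limma-voom also called 0 members, with 2 at an unadjusted p under 0.05 by each. The lowest adjusted p of any member was 0.2003 in edgeR. The estimates were comparatively precise: the median standard error of the log2 fold change was 0.123 in members and 0.232 over all genes tested, and the median level was 7.15 against 4.76 on the log2 CPM scale. For 61 members (76.3%) the whole 95% interval of the difference lay within 0.5 of 0 on the log2 scale, or 1.41-fold, against 26.7% of all genes. These p-values and intervals measure the spread between these embryos.

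Small differences pointed more often to lower levels in SO-. The log2 fold change (SO- over SO+) was below 0 for 53 of the 80 members, or 66.3%, against 50.3% of all genes tested. The median was -0.042 in members, a fold of 0.971, and -0.0019 over all genes, with medians of -0.034, -0.095, -0.10, -0.066 and -0.026 for complexes I to V. With each library's trend against transcript length removed, the median over members was 0.0042 (0.0044 over all genes). The direction of the members' median was therefore not the same under every treatment of the counts. Leaving out SO+ embryo 1 gave a median of -0.0052, with complexes I and IV above 0 at 0.043 and 0.028, and leaving out SO+ embryo 2 one of -0.087. The CPM of the groups did not overlap for 20 members (25%), of which 16 were lower and 4 higher in SO-, against 29.5% of all genes tested. Complex III held 5 of them and complex V 7, complex I 6, and complexes II and IV 1 each.

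**Figure D2:**
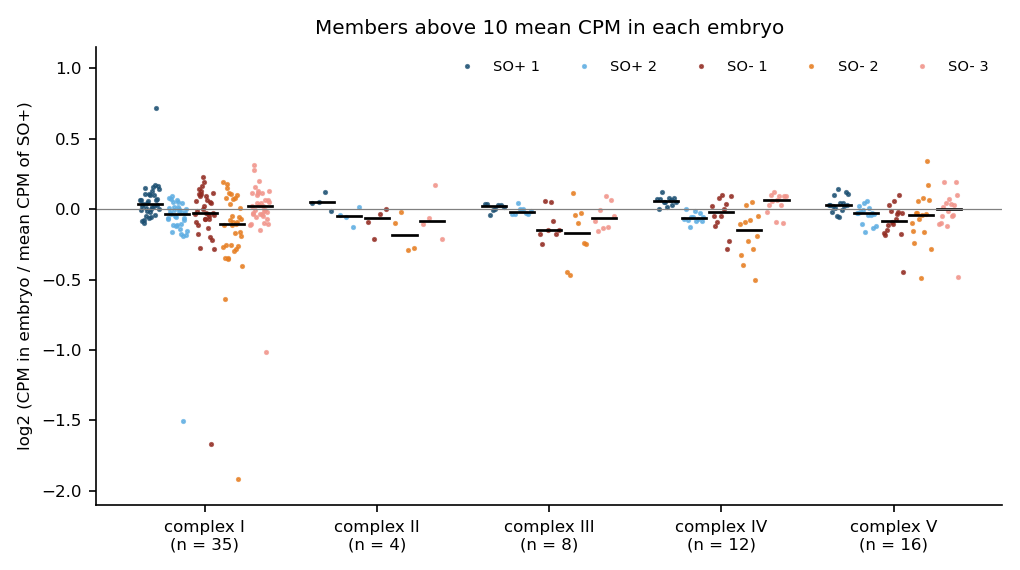
Level of each member above 10 mean CPM in each embryo (points), as log2 of its CPM over the mean of the SO+ embryos, grouped by complex, with black lines at the medians. Embryos of both genotypes lie around 0, and the lowest point of complex I in SO+ embryo 2 and in each SO- embryo is Ndufs5.

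The SO+ embryos also differed from each other. Their median fold difference was 1.08 over the tested members, and 60 of 80 members were higher in SO+ embryo 1 than in SO+ embryo 2. For 46 members the log2 difference between the SO+ embryos was larger than the log2 fold change between genotypes. A difference between 2 single embryos varies more than one between group means, so this count cannot show which spread was larger. SO- embryo 2, the library with the lowest total, had the lowest CPM of the 5 embryos for 36 members and SO+ embryo 1 the highest for 37. The shares over all genes were not taken for the counts in this paragraph, so they are not read as particular to the members.

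**Figure D3:**
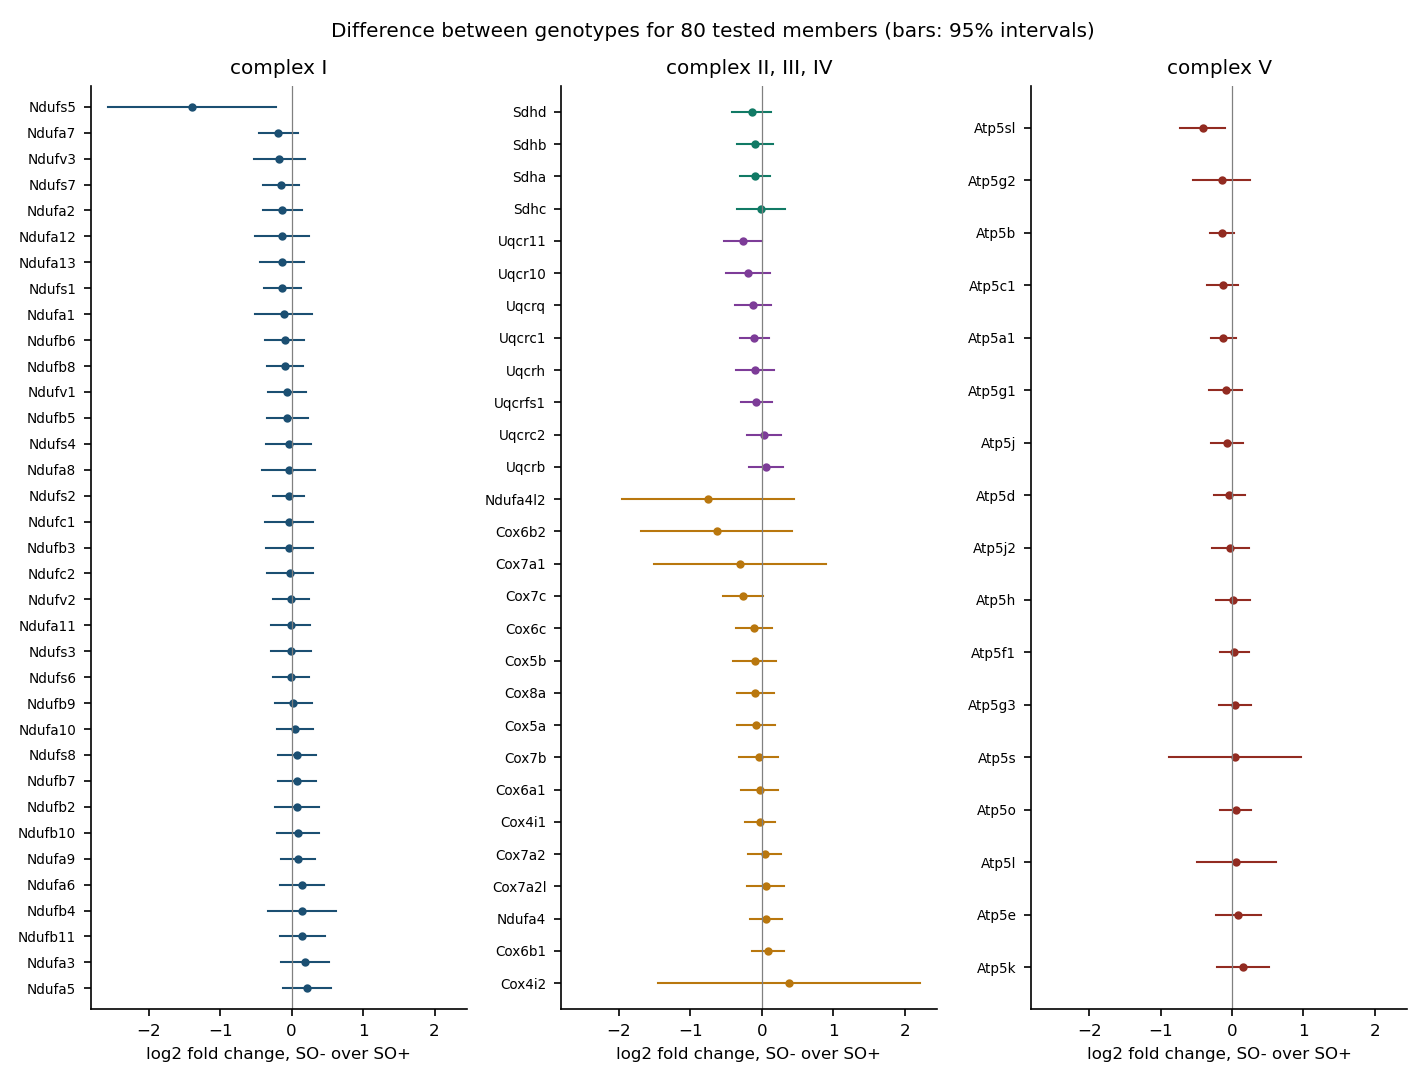
Log2 fold change of SO- over SO+ (points) with its 95% interval (bars) for the 80 tested members, in panels by complex and ordered by value within each complex. The point farthest from 0 is Ndufs5 at -1.40, and intervals are widest for Cox4i2, Ndufs5, Ndufa4l2 and Cox7a1.

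Complex I carries electrons from NADH to ubiquinone through 7 nuclear-encoded core subunits, while its remaining nuclear subunits are accessory. Of the 7 core subunits, 0 were called in edgeR (0 at an unadjusted p under 0.05) and 6 had a log2 fold change below 0, with a median of -0.042. The 28 accessory members had a median of -0.030, 17 of them below 0. Summed CPM of the core subunits was 1398 and 1298 in SO+ and 1287, 1246 and 1342 in SO- embryos 1, 2 and 3, so the groups overlapped.

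Per kilobase of transcript, Ndufa7 and Ndufb8 had the highest levels of complex I. Ndufa7, an accessory subunit of the peripheral arm, measured 492 and 422 CPM per kb in SO+ and 378, 359 and 455 in SO- embryos 1 to 3, which overlap, with a log2 fold change of -0.19 (SE 0.13, adjusted p = 0.598 in edgeR). Ndufb8, an accessory subunit of the membrane arm, measured 314 and 314 CPM per kb against 309, 255 and 307, with a log2 fold change of -0.095 (SE 0.12, adjusted p = 0.815 in edgeR). Its SO+ embryos were nearly equal and above every SO- embryo.

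The largest differences upward in complex I were those of the accessory subunits Ndufa5 and Ndufa3. Ndufa5 had 49.6 and 56.6 CPM in SO+ and 57.3, 59.95 and 66.1 CPM in SO-, a log2 difference of 0.21 (SE 0.15, adjusted p = 0.631 in edgeR). Ndufa3 had 47.4 and 52.5 CPM against 55.1, 52.8 and 60.6 CPM, a log2 difference of 0.19 (SE 0.16, adjusted p = 0.683 in edgeR). For both genes all SO- embryos were above both SO+ embryos, by a narrow margin for SO+ embryo 2. Ndufa9, which lies near the ubiquinone site, was the third complex I member without overlap in that direction, with 170.5 and 169 CPM against 182.6, 183.4 and 174.9 CPM.

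Ndufs5, a small accessory subunit of the intermembrane-space side, showed the largest fold change of any tested member, and it rested on SO+ embryo 1. The 2 SO+ embryos had 766 and 161 counts of it and the SO- embryos 22, 5 and 35, which is 27.8 and 5.95 CPM against 5.32, 4.47 and 8.35 CPM. SO+ embryo 1 stood alone, 4.67-fold above SO+ embryo 2, which lay within the range of the SO- embryos. The log2 fold change was -1.40 (SE 0.54, adjusted p = 0.257 in edgeR). Without SO+ embryo 1 it was 0.086 (adjusted p = 0.997 in edgeR), and without SO+ embryo 2 it was -2.11 (adjusted p = 0.00039 in edgeR).

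Part of the Ndufs5 reads can be assigned to another gene. Ndufs5 (chr4:123712710-123718202, GRCm38, minus strand) has a processed pseudogene, BC002163 (chr16:42955631-42955949, plus strand), whose transcript is 99.4% identical over 319 bases. Both differences fall in a stretch of 65 bases, shown here for bases 61 to 125 of the 321 coding bases of Ndufs5, counted from the start codon. Capitals mark the differing bases, which are T81C and A105G with the Ndufs5 base first.
Ndufs5: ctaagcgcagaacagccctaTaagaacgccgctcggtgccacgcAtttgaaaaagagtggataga
BC002163: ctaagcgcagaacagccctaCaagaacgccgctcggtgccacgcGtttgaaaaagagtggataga
BC002163 had 211 and 347 counts in the SO+ embryos and 56, 14 and 56 in SO- embryos 1, 2 and 3. Of the reads on either gene, 78.4% were assigned to Ndufs5 in SO+ embryo 1 (95% Wilson interval 75.7 to 80.9%) and 31.7% in SO+ embryo 2 (27.8 to 35.9%). The share was 28.2% (19.4 to 39.0%), 26.3% (11.8 to 48.8%) and 38.5% (29.1 to 48.7%) in SO- embryos 1, 2 and 3. SO+ embryo 1 was therefore apart from the other 4 in the split between the genes, while the shares of SO+ embryo 2 and the SO- embryos overlapped. Added together, Ndufs5 and BC002163 had 35.5 and 18.8 CPM in SO+ and 18.9, 17.0 and 21.7 CPM in SO-. These intervals cover counting error only, since SmartSeq2 reads carry no molecular identifiers.

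**Figure D4:**
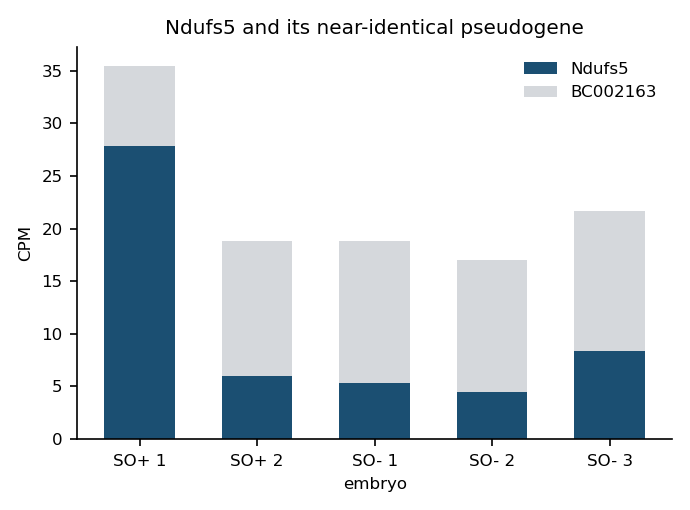
CPM assigned to Ndufs5 (dark) and to its pseudogene BC002163 (grey), stacked, in each of the 5 embryos. SO+ embryo 1 differs from the other embryos in both the height and the split, 35.5 CPM in all of which 27.8 were on Ndufs5.

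Near-identical copies were found for 15 members. In those other than Ndufs5, at least 86.0% of the reads assigned to either gene were on the member in every embryo. The lowest was Atp5l. Whether reads that match both genes equally were counted is not given in the sources used here. This share therefore cannot show how many were lost. Atp5g2, for example, had copies at 100% identity with 0 counts in every embryo. The exons of 29 members overlapped exons of another annotated gene. Whether strand was used in counting is not given either, so how reads in such overlaps were assigned is not known.

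Complex II oxidises succinate and is the only respiratory complex with all of its subunits encoded in the nucleus. All 4 members had log2 fold changes below 0, from -0.14 to -0.0092, and 0 were called in edgeR (0 at an unadjusted p under 0.05). Sdhb, the iron-sulphur subunit, was the highest per length, with 161 and 150 CPM per kb in SO+ and 134, 153 and 148 CPM per kb in SO-. Sdha, the flavoprotein, had 422 and 397 CPM against 384, 383 and 381 CPM, a log2 difference of -0.092 (SE 0.096, adjusted p = 0.768 in edgeR). Its SO- embryos were nearly equal and all below SO+. Sdhd, a membrane anchor, had the largest difference, with 128.6 and 131.2 CPM against 129.6, 107.4 and 112.4 CPM, which overlap.

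In complex III, 6 of 8 members had a log2 fold change below 0 (50.3% of all genes tested) and 5 had no overlap between the groups (29.5% of all genes tested), all of them lower in SO-, and whether these counts differ from those of other genes was not tested. Uqcr11 (chr10:80402997-80406830, GRCm38, minus strand), a small subunit at the edge of the complex, had 199 and 189 CPM in SO+ and 163, 141 and 174 CPM in SO- embryos 1, 2 and 3. Every SO- embryo was below both SO+ embryos. Its log2 fold change was -0.26 (SE 0.12, 95% interval -0.53 to -0.0029, adjusted p = 0.357 in edgeR). Uqcr10, another small subunit, had 95.2 and 90.3 CPM against 82.2, 68.0 and 87.3 CPM, a log2 fold change of -0.20 (SE 0.14, adjusted p = 0.619 in edgeR). The other members without overlap were the core protein Uqcrc1, the Rieske iron-sulphur protein Uqcrfs1 and the small subunit Uqcrq, with log2 fold changes of -0.10, -0.076 and -0.13.

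Uqcrc1 had 622 and 625 CPM in SO+ and 564, 606 and 568 CPM in SO-, and at 361 CPM per kb it was second to Uqcr11 at 389 CPM per kb, although in SO- embryo 2 it was the higher of the pair, at 366 against 316 CPM per kb. Uqcrb and Uqcrc2 were on the other side of 0, at 0.058 (SE 0.11) and 0.031 (SE 0.11), and their groups overlapped.

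Complex IV showed which subunit forms these embryos used. In each pair the general form held nearly all of the counts in every embryo, as the plot of isoforms shows. Cox4i1 had 760 and 690 CPM in SO+ and 736, 674 and 716 CPM in SO-. Cox4i2, the form typical of lung, had 2.47 and 1.26 CPM against 0.484, 6.26 and 2.39 CPM, on 2 to 68 counts per embryo. Its share of the counts on both genes was 0.324% (95% Wilson interval 0.256 to 0.410%) in SO+ embryo 1 and 0.921% (0.447 to 1.89%) in SO- embryo 2. The lowest and highest shares were 0.0657% and 0.921%, both in SO- embryos, the lowest on 2 counts in SO- embryo 1.

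Forms typical of heart and muscle or of testis were low or at 0. Cox6a2 and Cox8b, the heart and muscle forms, had 0 counts in every embryo, beside 205 to 5833 counts of Cox6a1 and 298 to 8853 of Cox8a. A count of 0 allows a Cox6a2 share of up to 0.0514% in SO+ embryo 1 and up to 1.46% in SO- embryo 2. Cox7a1, the heart and muscle partner of Cox7a2, had 2 to 102 counts per embryo, or between 0.752 and 1.45% of the counts on both genes. Its level was 3.70 and 2.92 CPM in SO+ against 2.42, 1.79 and 3.34 CPM in SO-. The 2 counts in SO- embryo 2 were below the 3 counts taken as the detection floor. The testis forms Cox7b2 and Cox8c had at most 5 and 12 counts in any embryo and were too low to be tested. Summed CPM of 4 muscle and heart markers was 5.32 to 8.17 over the 5 embryos. Most of it was Myh6, except in SO- embryo 2, where Actc1 had 4.47 of 6.26 CPM.

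Cox6b2, the testis form of Cox6b1, had 6.86 and 4.10 CPM in SO+ and 3.14, 2.68 and 4.29 CPM in SO-. It took 0.901 to 2.24% of the counts on both genes. These values rest on 189 and 111 counts in SO+ and 13, 3 and 18 in SO-, so SO- embryo 2 was at the detection floor. The log2 fold change was -0.63 (SE 0.49, adjusted p = 0.655 in edgeR), with an interval from -1.69 to 0.43. Cox6b1, the general form, had 299 and 278 CPM against 306, 295 and 315 CPM, a log2 fold change of 0.087 (SE 0.10, adjusted p = 0.801 in edgeR). Ndufa4l2, a paralogue of Ndufa4 known as a hypoxia-induced gene, had 8.82 and 3.36 CPM against 2.18, 4.47 and 4.53 CPM (log2 fold change -0.76, SE 0.56, adjusted p = 0.633 in edgeR), on counts of 5 to 243. SO+ embryo 1 was above all others, and without it the log2 fold change was 0.093.

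**Figure D5:**
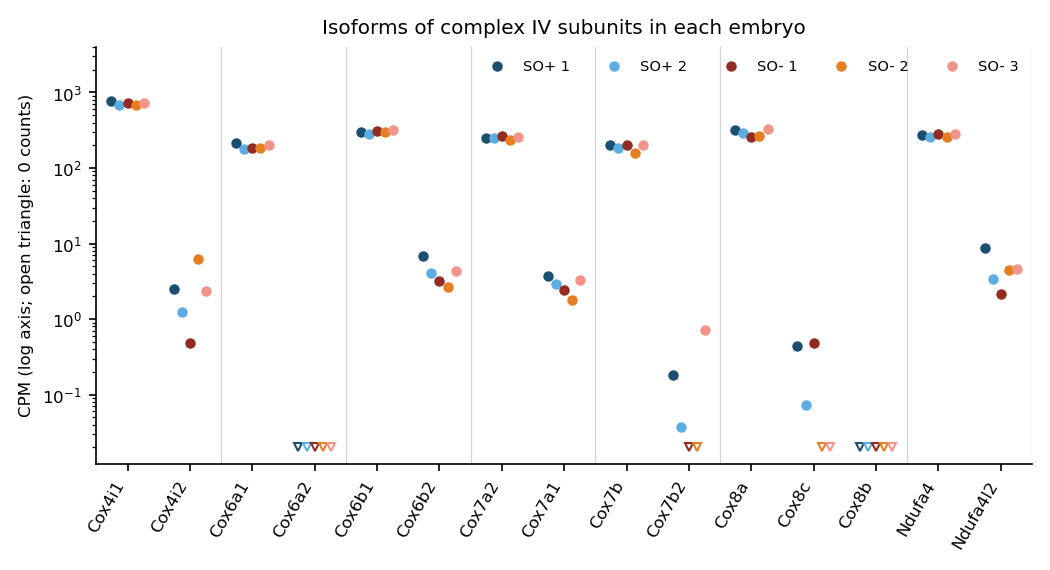
CPM on a log axis of the forms of complex IV subunits in each embryo, the general form first in each block, with open triangles for 0 counts. The general forms lie between 160.2 and 759.9 CPM in every embryo, and the other forms at 8.82 CPM or less.

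Among the other complex IV members, Cox8a was second to Cox4i1 in level per length, with 531 against 947 CPM per kb on average, although in SO- embryo 1 it was below Ndufa4 and Cox6b1, at 474 against 529 and 494 CPM per kb. Cox8a had 321.5 and 287.9 CPM in SO+ and 261, 266.6 and 324.2 CPM in SO-, which overlap. Cox7c, a small subunit, was the one complex IV member without overlap, with 191 and 184 CPM against 154, 132 and 176 CPM (log2 fold change -0.26, SE 0.13, adjusted p = 0.405 in edgeR).

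Complex V, the ATP synthase, had the largest summed CPM of the 5 complexes, most of it from the catalytic head and central stalk. Atp5b, the catalytic beta subunit, was the highest of all 84 members per length, at 1507 CPM per kb on average. It had 3120 and 3009 CPM in SO+ and 2696, 2757 and 2858 CPM in SO- embryos 1, 2 and 3. The alpha subunit Atp5a1 had 1702 and 1638 CPM against 1483, 1557 and 1551 CPM. Both genes had every SO- embryo below both SO+ embryos. Their log2 fold changes were -0.14 (SE 0.078, adjusted p = 0.473 in edgeR) and -0.12 (SE 0.083, adjusted p = 0.594 in edgeR), so the 95% interval of Atp5b ran from -0.31 to 0.028.

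By part of the enzyme, the head and central stalk (5 genes) had a median log2 fold change of -0.12 with 4 below 0, the peripheral stalk (4 genes) 0.024, the c-ring (3 genes) -0.091 and the small membrane subunits (3 genes) 0.062. Summed CPM of the head and central stalk was 5746 and 5563 in SO+ and 5025, 5151 and 5327 in SO-, without overlap. The peripheral stalk summed to 1254 and 1228 CPM against 1215, 1261 and 1275 CPM, and overlapped. These groups were set after the values were seen and carry no test.

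The c-ring protein is made from 3 genes that encode the same mature protein, and all 5 embryos ranked them in the same order. Atp5g3 took 52.0 and 53.7% of the counts of the 3 genes in SO+ and 55.5, 54.5 and 55.8% in SO-, Atp5g1 38.2 and 38.7% against 36.4, 38.9 and 35.6%. Atp5g2 held the remaining 6.54 to 9.78%. It matches the pseudogenes Gm10175 and Gm10231 at 100% identity over 645 and 441 bases. Whether reads shared with them were counted is not known, so its share and the others can be affected. The Atp5g3 share was higher in every SO- embryo than in either SO+ embryo by a narrow margin, a difference that was not tested. The 95% Wilson interval of the Atp5g3 share was 51.2 to 52.8% in SO+ embryo 1 and 50.5 to 58.5% in SO- embryo 2. Of the small membrane subunits e and g, Atp5k took 69.7 to 75.8% of the counts of Atp5k and Atp5l. Atp5l has near-identical copies as well, so the same limit holds for this share.

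Atp5k and Atp5e gave the largest upward differences in complex V. Atp5k had 43.8 and 42.3 CPM in SO+ and 46.2, 54.6 and 43.9 CPM in SO-, without overlap but with SO- embryo 3 just above SO+ embryo 1, and a log2 fold change of 0.15 (SE 0.17, adjusted p = 0.796 in edgeR). Atp5e, the epsilon subunit of the central stalk, had 77.1 and 66.7 CPM against 73.3, 70.7 and 82.3 CPM, which overlap.

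Atp5sl (chr7:25619414-25625551, GRCm38, plus strand) had the lowest adjusted p of all members. The gene is known as a complex I assembly factor under the name Dmac2. It had 93.0 and 79.5 CPM in SO+ and 63.1, 70.7 and 61.8 CPM in SO-, so every SO- embryo was below both SO+ embryos. The log2 fold change was -0.41 (SE 0.14, 95% interval -0.72 to -0.099, adjusted p = 0.2003 in edgeR).

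Genes that work with the members were read from lists of known roles. A list of 7 further genes that the name rule does not take in held Ndufab1, Cyc1, Cycs, Usmg5, Atpif1, 2010107E04Rik and 1810043G02Rik. Not all of them encode subunits, as Cycs is an electron carrier. Of these 7, 0 were called in edgeR (0 at an unadjusted p under 0.05). Their median log2 fold change was -0.010, with 3 above 0 and 4 below, the lowest being Cyc1 at -0.24 (SE 0.11). The 13 mitochondrially encoded subunits summed to 16691 and 18847 CPM in SO+ and 18179, 18134 and 16554 CPM in SO-, and 0 of the 12 tested were called in edgeR (2 at an unadjusted p under 0.05). Their order over the embryos differed from that of the nuclear members, since SO+ embryo 2 was the highest for the mitochondrial and SO+ embryo 1 for the nuclear genes.

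Assembly factors build the complexes and are not part of them. Of 15 complex I assembly factors, 9 had a log2 fold change above 0 and the median was 0.14, and of 31 tested factors for complexes II to V, 23 were above 0 with a median of 0.096, where 49.7% of all genes tested were above 0. Whether these shares differ was not tested. None of these factors was called in edgeR (0 of 15 and 3 of 31 at an unadjusted p under 0.05). Among 18 tested regulators of nuclear respiratory genes and of mitochondrial DNA expression, 1 was called, against 2.35% of all genes tested. It was Mycn, a MYC-family transcription factor, named because it was the only call. Mycn fell from 139 and 154 CPM in SO+ to 78.6, 73.4 and 89.2 CPM in SO- (log2 fold change -0.85, SE 0.13, adjusted p = 0.0043 in edgeR). Myc, of the same family, went the other way without being called. It had 53.6 and 61.4 CPM against 69.4, 77.0 and 76.6 CPM (log2 fold change 0.37, SE 0.15, adjusted p = 0.268 in edgeR). Ppargc1a, the inducible coactivator of mitochondrial genes, had at most 0.835 CPM and was not tested.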

How the data were processed

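RNA was measured in 5 embryos, 2 SO+ and 3 SO-, grouped by the sample labels. SmartSeq2 libraries were made from 1 ng of RNA with 15 preamplification cycles. Reads were aligned by the authors with STAR on the mm10 (GRCm38) genome after adapter trimming, HTSeq tallied them on Ensembl genes, and the deposited values are whole-number counts that were not normalized.

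The counts were compared by genotype alone with the quasi-likelihood test of edgeR 4.0.16 in R 4.3.3, after TMM scaling and the filterByExpr filter, and p-values were adjusted by Benjamini-Hochberg over all 12067 genes tested. The SE was derived from each log2 fold change and its F statistic. Scripts were tested on simulated data. CPM divides a count by the embryo's total. Transcript lengths and coordinates came from GENCODE M21 on GRCm38, and promoter windows from RefSeq. Copies were searched with BLAST 2.17.0 (at least 97% identity over at least 150 bases).

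The members and all gene lists were chosen with earlier results of these data known. Named in full were, per complex, the 2 largest differences in each direction, the 2 highest levels per length, the subunit forms, and untested members. Further genes (Ndufa9, Uqcrfs1, Uqcrq, Cox7c, Myc, BC002163 and the other copies) and the parts of ATP synthase were chosen after values were seen. Alternatives were DESeq2 1.42.0, limma-voom (limma 3.58.1), other scalings and filters, a robust dispersion, nuclear protein-coding genes alone, removal of length or GC trends, the replicate number as a block and each embryo left out. Total counts of 1117566 to 27538119 set the precision.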

Additional observations from a re-analysis of the deposited data

How the results depend on the processing

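Members called stayed at 0 under DESeq2, limma-voom, every scaling and filter, the robust dispersion and both trend removals. Genes called overall numbered 91 with limma-voom (75 higher, 16 lower), against 283. With an embryo left out they ranged from 35 (without SO- embryo 2) to 573 (without SO+ embryo 2), with 21 to 314 higher and 14 to 259 lower, and members called ranged from 0 to 1, the call being Ndufs5 without SO+ embryo 2. Where 1 SO+ embryo remained, it was assumed to vary like the SO- embryos.

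Same-numbered embryos are different animals. Their deviations from the group mean correlated at 0.0077 and 0.115, and those of SO+ embryo 1 and SO- embryo 3 at 0.133. With 2 SO+ embryos their deviations mirror each other, so these values cannot show whether embryos were paired. A replicate block gave 929 calls (523 higher, 406 lower) and 1 member lower, Ndufs5 at -1.85 (adjusted p = 0.0033 in edgeR). It changed no other member's call.

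Median log2 fold changes of complex I were -0.0027 with limma-voom, -0.068 without a filter, -0.067 with the block, 0.020 with the length trend removed and -0.072 to 0.043 with an embryo left out. Those of complex II were -0.13, -0.12, -0.058 and -0.13 to -0.056 under the last 4 of these, and that of complex V was 0.033 with the length trend removed and -0.059 to -0.023 with an embryo left out, the lowest without SO+ embryo 2. Complex IV, at -0.0083 with the length trend removed, ranged from -0.13 without SO+ embryo 2 to 0.028 without SO+ embryo 1. The complex II ratio of summed CPM was 0.905 to 0.962 with an embryo left out, the highest without SO+ embryo 1. Complexes I and IV reached ratios of 1.00 and 1.01 without SO+ embryo 1. The median log2 fold change over all genes tested also moved with the setting. It was -0.082 without a filter, -0.0063 with the block and 0.0044 with the length trend removed.

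Single members near 0 changed sign under some settings, and the cause was not tested. With the block, Atp5e was at -0.0030, Atp5l at -0.044 and Uqcrc2 at -0.017. With the GC trend removed, Atp5l was at -0.0022, Cox4i1 at 0.026, Cox6a1 at 0.069, Cox7a2 at -0.024, Ndufa4 at -0.011, Uqcrb at -0.0036 and Uqcrc2 at -0.0058. With the length trend removed, Cox4i1 was at 0.040, Cox6a1 at 0.031 and Cox7b at 0.014. Cox4i2 was at -0.15 with limma-voom and Uqcrc2 at -0.0044 without a filter. With an embryo left out, log2 fold changes ranged from -0.014 to 0.19 for Atp5e, -0.29 to 0.0069 for Atp5g2, -0.027 to 0.097 for Atp5g3, -0.061 to 0.19 for Atp5l, -0.093 to 0.037 for Cox4i1, -0.36 to 1.04 for Cox4i2 and -0.15 to 0.089 for Cox6a1. They ranged from -0.0054 to 0.090 for Cox7a2, -0.11 to 0.041 for Cox7b, -1.29 to 0.093 for Ndufa4l2, -2.11 to 0.086 for Ndufs5 and -0.022 to 0.083 for Uqcrc2. Without members that have near-identical copies, an alternative chosen after seeing the data, the median over members was -0.042. Depth limits the low forms most, since 3 counts were 2.68 CPM in SO- embryo 2.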
